A study of Mus musculus with 75 samples.

Results

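The levels of 6 noncoding RNAs, grouped as nuclear-retained, were followed through the RNA libraries of a study of DNMT3A in mouse brain: Malat1 (ENSMUSG00000092341), Neat1 (ENSMUSG00000092274), Miat (ENSMUSG00000097767), Snhg11 (ENSMUSG00000044349), Gas5 (ENSMUSG00000053332) and Pvt1 (ENSMUSG00000097039). The rule lists them by name and uses no measured value, although the list was drawn up with earlier results of these data known, and 6 of 6 were found by Ensembl identifier. Of the 4 that could be compared between neuron nuclei and whole cortex, 3 were called higher in nuclei and Neat1 was not, where 39.7% of 17317 genes were called higher, so this comparison is a weak check of the grouping. Malat1, Neat1, Snhg11 and Gas5 are listed both in the files of cortex and nuclei and in those of hippocampus. Miat and Pvt1 were matched in the hippocampus files alone and were not analysed here in cortex or nuclei. DNMT3A is an enzyme that methylates cytosines of DNA. Its DNMT3A1 isoform has an N-terminal stretch that the shorter DNMT3A2 is without.

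All mice were C57BL/6 at postnatal day 21, and 26 RNA libraries of the 75 samples were used. Whole cerebral cortex gave 3 libraries of Dnmt3a1-/-, 2 of Dnmt3a2-/-, 3 of Dnmt3a1_delta_N (an altered allele of the long isoform, whose name the labels do not expand) and 8 of wild type. The wild type cortex libraries carry 3 numbering series in their titles: 3 with plain numbers, 2 with r and 3 with n. They were taken as controls of Dnmt3a1-/-, Dnmt3a2-/- and Dnmt3a1_delta_N in that order, which the labels do not state. Whole hippocampus gave 3 wild type and 3 Dnmt3a1-/- libraries, and nuclei of cortical neurons, freed by douncing and sorted by the neuronal protein NeuN, gave 2 libraries labelled wild type and 2 labelled Dnmt3a1-/-. The Dnmt3a1-/- and Dnmt3a2-/- labels name no Cre driver. Separate animals are not stated as the source of the replicate libraries, and the p-values therefore measure the spread between these libraries, which may be technical.

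Malat1 is an abundant RNA of nuclear speckles, the bodies in which splicing factors gather. Neat1 is the scaffold on which paraspeckles assemble, and its gene lies beside that of Malat1. Miat (also called Gomafu) forms its own nuclear domains in neurons. Gas5 and Snhg11 are host genes, whose introns hold small nucleolar RNAs and whose spliced remainder codes for no known long protein, and spliced Gas5 is degraded by nonsense-mediated decay when it meets ribosomes. Pvt1 lies beside the oncogene Myc. Library preparation with an mRNA kit selects RNA by its poly(A) tail. The short form of Neat1 has such a tail, while the long form of Neat1 and mature Malat1 end in a triple helix instead, and how this selection weighs on their levels was not tested.

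The start regions of the members that stood high in nuclei are shown because they differ in their number of CG pairs, the main site of DNA methylation. Each sequence runs 5′ to 3′ from 250 bases before to 50 bases after the start in RefSeq (build GRCm38.p6, whereas the counts were made on mm9), with every CG in capitals. Of the 6 members 4 matched this table: Malat1, Miat, Snhg11 and Gas5, the last with 2 starts. Neat1 and Pvt1 did not match.
Malat1, chr19:5802623-5802922, minus strand: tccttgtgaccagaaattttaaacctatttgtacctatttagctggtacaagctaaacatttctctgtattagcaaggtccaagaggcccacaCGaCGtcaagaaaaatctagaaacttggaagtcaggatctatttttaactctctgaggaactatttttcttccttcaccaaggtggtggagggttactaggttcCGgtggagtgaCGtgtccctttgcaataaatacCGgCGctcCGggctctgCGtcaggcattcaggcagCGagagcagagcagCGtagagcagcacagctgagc
Snhg11, chr2:158375463-158375762, plus strand: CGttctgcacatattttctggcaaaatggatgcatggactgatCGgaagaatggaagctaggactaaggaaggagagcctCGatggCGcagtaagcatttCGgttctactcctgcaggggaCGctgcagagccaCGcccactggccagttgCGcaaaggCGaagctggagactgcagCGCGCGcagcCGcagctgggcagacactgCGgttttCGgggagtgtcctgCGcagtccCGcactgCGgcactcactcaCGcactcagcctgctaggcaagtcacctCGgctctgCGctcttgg
Gas5 first start, chr1:161034351-161034650, plus strand: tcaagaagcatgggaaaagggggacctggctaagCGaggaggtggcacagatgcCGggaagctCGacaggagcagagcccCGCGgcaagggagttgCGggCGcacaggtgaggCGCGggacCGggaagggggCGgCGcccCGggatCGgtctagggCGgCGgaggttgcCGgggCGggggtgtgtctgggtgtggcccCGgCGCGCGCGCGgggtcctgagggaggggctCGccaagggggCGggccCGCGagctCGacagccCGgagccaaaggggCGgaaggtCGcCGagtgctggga
Gas5 second start, chr1:161034916-161035215, plus strand: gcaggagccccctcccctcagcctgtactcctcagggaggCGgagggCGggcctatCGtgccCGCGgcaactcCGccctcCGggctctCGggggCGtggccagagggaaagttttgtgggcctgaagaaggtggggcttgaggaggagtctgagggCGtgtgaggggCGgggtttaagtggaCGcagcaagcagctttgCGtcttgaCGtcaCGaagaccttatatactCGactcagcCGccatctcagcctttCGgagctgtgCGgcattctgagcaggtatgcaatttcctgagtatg

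The Malat1 window held 10 CG, Snhg11 held 21, Miat held 25, and the Gas5 windows held 33 and 19. Among the 32851 windows of this length the median was 7, with quartiles of 3 and 20. Malat1 was thus the member nearest to the median, and the Gas5 first start was above 91.4% of all windows. The motif TGACGTCA, which reads the same on both strands and is known for binding CREB, was found once in the Gas5 second window and in none of the other member windows; 1.79% of all windows hold it. The motif CACGTG was in none of them, against 7.15% of all windows. A match of letters is a description of the window.

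Gene totals ran from 8.7 to 39.0 M counts (M, mega) per library, and levels are given as counts per M counts of genes in the same file (CPM). Neat1 rested on 344 to 2170 counts per library, Pvt1 on 64 to 207, and each other member on 1180 or more. The Dnmt3a gene itself gave 73.2, 80.7 and 74.0 CPM in the Dnmt3a1-/- cortex libraries, where the plain wild type series held 152, 165 and 146 CPM. In hippocampus the mutant libraries held 71.5, 76.1 and 72.3 CPM and the controls 162, 149 and 134 CPM. Nuclei labelled Dnmt3a1-/- gave 382 and 369 CPM, and wild type nuclei 405 and 399 CPM, so this count does not follow the label as it does in tissue (adjusted p = 0.89 by edgeR). The isoforms share most exons, so a count over the whole gene checks the labels of Dnmt3a2-/- (132 and 144 CPM) and Dnmt3a1_delta_N (135, 139 and 139 CPM) little. The nuclei held the NeuN gene Rbfox3 at 178 to 203 CPM against 124 to 170 in wild type cortex. Of the 12 neuron markers listed, Rbfox3 included, edgeR called 2 higher and 6 lower in wild type nuclei (median log2 fold change -0.26). Defining markers of other cells were low in nuclei: Aqp4 of astrocytes at 2.61 to 3.64 CPM against 205 to 335, Mog of oligodendrocytes at 4.23 to 5.66 against 174 to 229, Cx3cr1 of microglia at 1.59 to 2.41 against 148 to 195. Between libraries of bulk tissue, fewer cells of a type and less RNA per cell cannot be told apart.

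**Figure D1:**
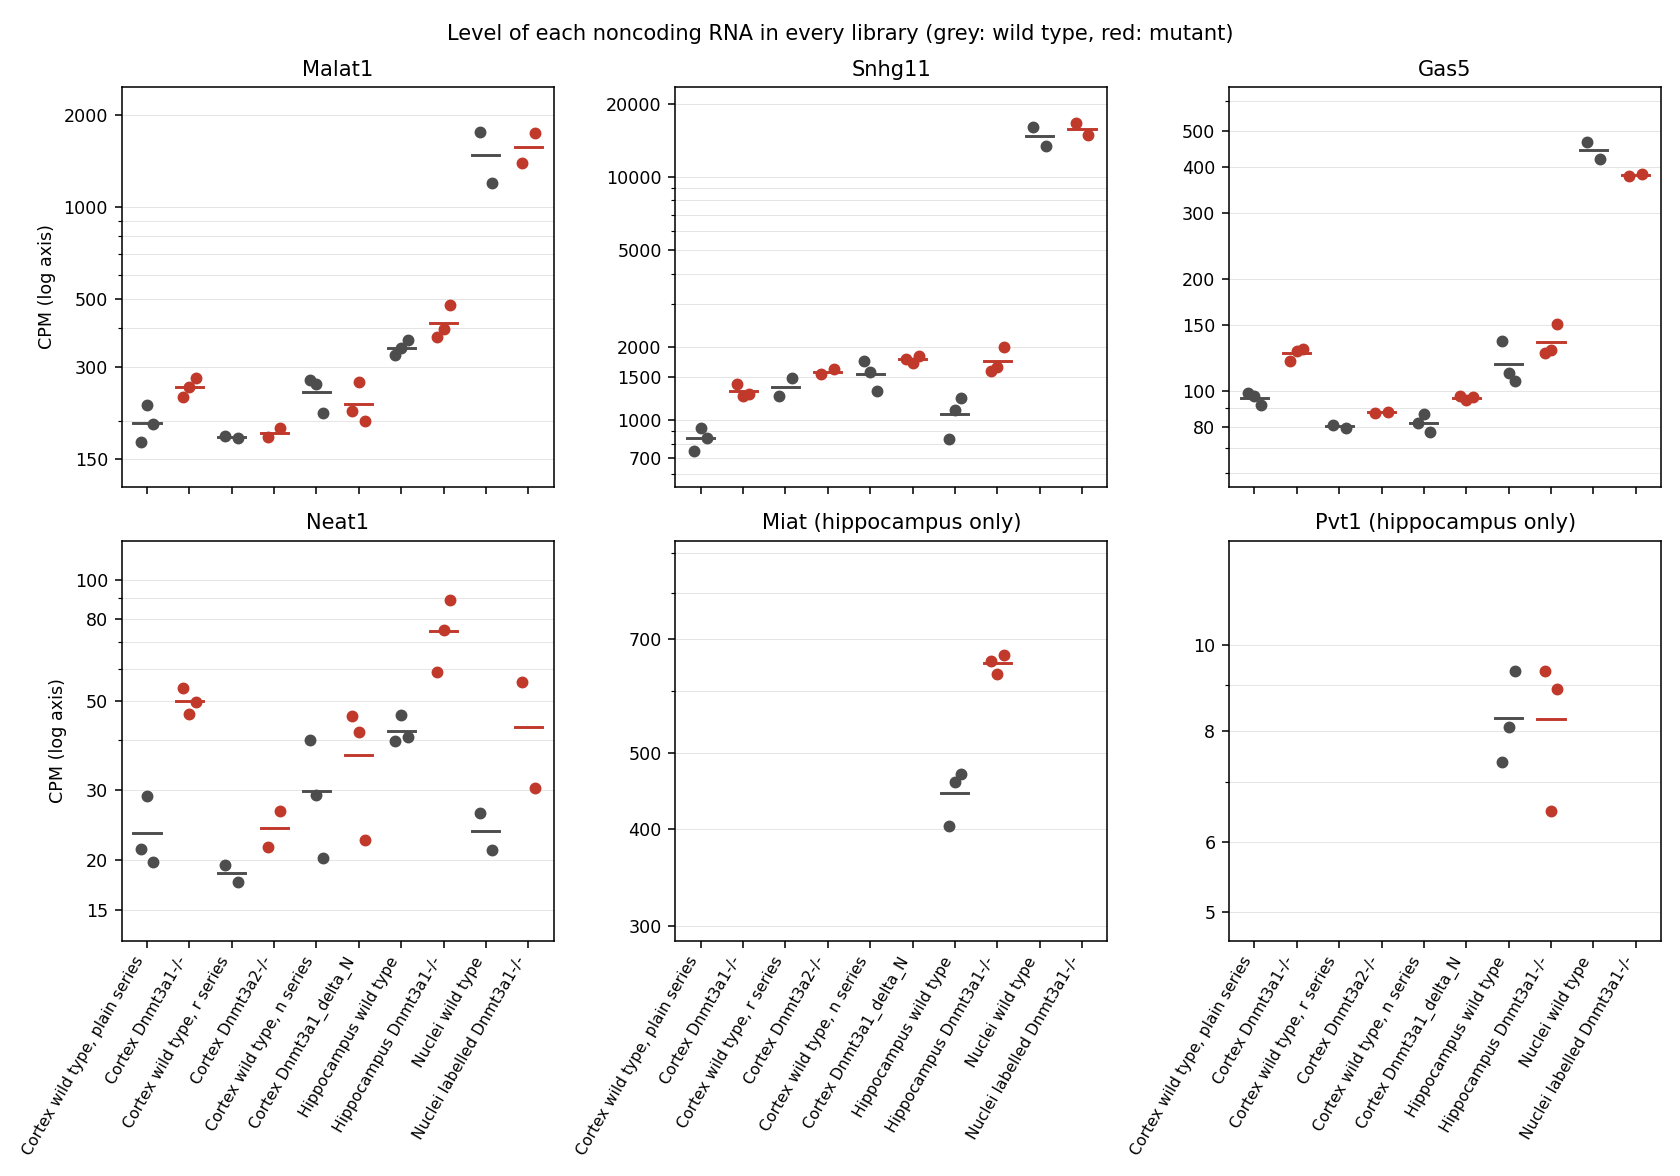
CPM of each noncoding RNA (log axis) in every library, by group; points are libraries, bars are group means, grey is wild type and red is mutant. Malat1, Snhg11 and Gas5 stand far higher in the 4 nuclei libraries than in tissue, and Neat1 in nuclei lies within the range of tissue.

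Whether these RNAs are more abundant in neuron nuclei than in whole cortex was asked first. Snhg11 reached 15958 and 13405 CPM in the 2 wild type nuclei libraries. In the 8 wild type cortex libraries it ran from 746 to 1748 CPM, with a median of 1288. Every nuclei library was thus above every cortex library by a wide margin. Snhg11 took 1.47% of all gene counts in wild type nuclei and ranked second among genes by counts in all 4 nuclei libraries, behind Meg3, an imprinted noncoding RNA, whereas its rank in cortex was between 32 and 97. By edgeR's quasi-likelihood test, which compares groups against the spread of their libraries and adjusts p over all genes by Benjamini-Hochberg, it stood 3.31 ± 0.24 log2 units higher (SE, n = 2 against 8, adjusted p = 6.6e-08).

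Malat1 stood at 1757 and 1192 CPM in wild type nuclei, and from 170 to 271 CPM with a median of 203 in wild type cortex. The groups did not overlap, although the 2 nuclei libraries differed from each other more than in any other member called here. Malat1 was higher by 2.55 ± 0.17 (SE, n = 2 against 8, edgeR adjusted p = 1.0e-08). Gas5 stood at 468 and 420 CPM against 77.2 to 98.7 CPM with a median of 84.4, again without overlap. It was higher by 2.10 ± 0.10 (SE, n = 2 against 8, edgeR adjusted p = 3.8e-10).

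Neat1 stood apart from these. It stood at 26.2 and 21.2 CPM in wild type nuclei, inside the range of 17.7 to 39.9 CPM in wild type cortex (median 20.8). The log2 difference of -0.31 ± 0.27 missed the threshold (SE, n = 2 against 8, edgeR adjusted p = 0.3), with a 95% interval from -0.90 to 0.28. An interval that ends at 0.28 lies below the lower bounds of Gas5 (1.88), Malat1 (2.19) and Snhg11 (2.79). Against the r series alone the Neat1 difference turned to 0.08 (adjusted p = 0.57, from 0.089 to 0.86 over its alternatives).

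Thus 3 of the 4 members passed as higher in nuclei and 0 as lower, where 39.7% of 17317 genes were called higher and 39.7% lower. The size tells more than the call: 1.43% of genes tested had a larger log2 fold change than Snhg11, 3.96% than Malat1, 7.3% than Gas5 and 56.9% than Neat1. Scaling by library totals alone raised the median of all genes by 0.26, and the 4 members moved with it, to 3.57 for Snhg11, 2.80 for Malat1, 2.36 for Gas5 and -0.05 for Neat1. Nuclei here are neuronal and cortex holds all cells, so a difference between nucleus and cytoplasm and one between neurons and other cells cannot be told apart.

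The same comparison between the libraries labelled Dnmt3a1-/- shares no library with the first. Snhg11 reached 16668 and 14808 CPM in nuclei and at 1404, 1262 and 1277 CPM in cortex, a difference of 3.25 ± 0.10 (SE, n = 2 against 3, edgeR adjusted p = 2.7e-12). Malat1 stood at 1393 and 1746 CPM against 238, 257 and 275 CPM and was higher by 2.28 ± 0.11 (SE, n = 2 against 3, edgeR adjusted p = 3.6e-10). Gas5 reached 377 and 384 CPM against 120, 128 and 130 CPM. It was higher by 1.26 ± 0.09 (SE, n = 2 against 3, edgeR adjusted p = 1.4e-08), and its nuclei libraries did not overlap those of cortex. Here too 3 of 4 members were called higher, beside 41.0% of 16841 genes.

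Neat1 stood at 55.6 and 30.3 CPM in nuclei labelled Dnmt3a1-/- against 53.9, 46.2 and 49.7 CPM in cortex Dnmt3a1-/-. One nuclei library was above every cortex library and the other below. The difference was -0.53 ± 0.24 (SE, n = 2 against 3, edgeR adjusted p = 0.068, 95% interval -1.09 to 0.02). It passed as lower with DESeq2 (-0.58, adjusted p = 0.0035) and with no filter on low counts (-0.46, adjusted p = 0.0029). Without the nuclei library labelled Dnmt3a1-/- 1, which leaves 1 nuclei library, the difference was -1.05. Over its alternatives it ran from -1.05 to -0.15.

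Genes that work with these RNAs were counted beside them, all in wild type nuclei against cortex. In that comparison 39.7% of 17317 genes were called higher and 39.7% lower. Of 20 proteins of nuclear speckles and splicing, where Malat1 resides, 19 were higher and 1 lower, with a median log2 fold change of 1.91. The median of all genes tested was -0.03. Clk4, a kinase of splicing factors, was higher by 2.92 ± 0.08, from 74.0 to 670 CPM (SE, edgeR adjusted p = 6.3e-12). Srsf2 and Srsf7, serine and arginine rich splicing factors, were higher by 2.32 ± 0.08 and 2.42 ± 0.09. Of 20 proteins found in paraspeckles, the bodies that Neat1 scaffolds, 15 were higher and 1 lower, with a median of 1.37, so most of these genes were called higher while Neat1 was not. Rbmx, a nuclear RNA-binding protein, was higher by 2.31 ± 0.09 (SE, edgeR adjusted p = 4.9e-11), and Taf15, an RNA-binding protein, by 2.19 ± 0.09.

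Of the 16 snoRNA host genes tested among 26 listed, Snhg11 and Gas5 included, 12 were higher and 3 lower, with a median of 1.66. Snhg17, the neighbour of Snhg11, was higher by 2.46 ± 0.10, from 5.24 to 34.7 CPM (SE, edgeR adjusted p = 1.3e-10). Nop56, a core protein of small nucleolar particles whose gene also hosts snoRNAs, was higher by 2.07 ± 0.13. Of the 10 other long noncoding RNAs tested among 25 listed, 8 were higher and 1 lower, with a median of 1.45. Ftx, a noncoding RNA of the X inactivation centre, was higher by 3.87 ± 0.14, Meg3 by 3.51 ± 0.24, and Pantr1 was lower (-2.88 ± 0.21). Of 14 factors of nonsense-mediated decay, 10 were higher and 2 lower, with a median of 0.55, among them the kinase Smg1 at 2.21 ± 0.07.

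Lists of other cell types and of mitochondria were far lower in the dounced and NeuN-sorted nuclei, beside 39.7% of all genes tested called lower. All 13 mitochondrially encoded transcripts were lower, with a median of -9.23, as were 12 of 12 markers each of astrocytes (-5.32), oligodendrocytes (-5.13), microglia (-6.48) and endothelium (-6.75), 7 of 7 of blood (-4.74) and 8 of 12 of choroid plexus (-2.62). Of 12 markers of neurons 2 were higher and 6 lower (median -0.26). Mitochondrial transcripts summed to 141 to 313 CPM in nuclei and to 84700 to 118200 CPM in wild type cortex. Reads that the counting assigned to no gene feature were 27.99% to 30.36% of uniquely aligned reads in nuclei and 9.34% to 10.8% in cortex. Whether they lie outside genes or in introns cannot be seen, since the feature setting is not given in the sources used here. Their part in the members' levels was not tested.

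**Figure D2:**
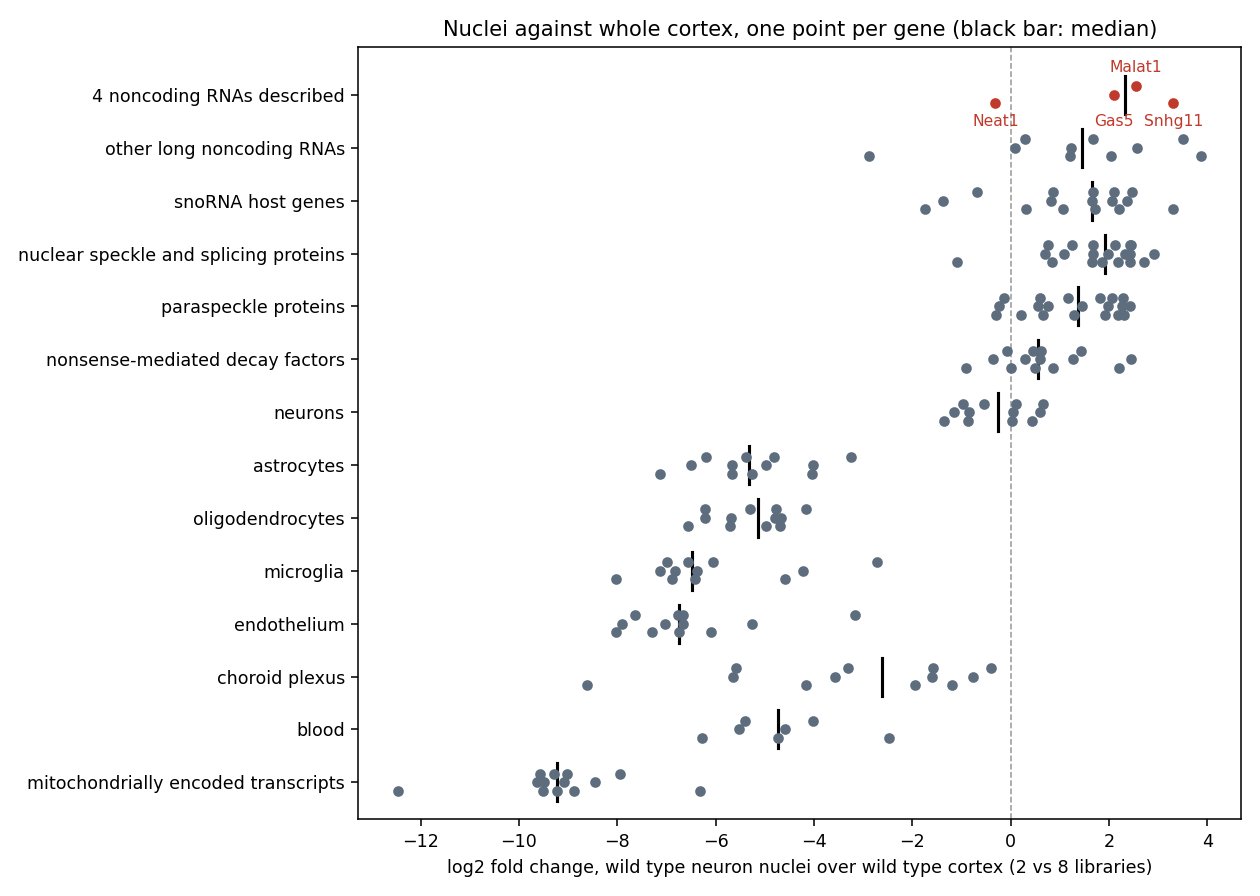
Log2 fold change of wild type nuclei over wild type cortex for the 4 noncoding RNAs (red) and for the genes of each list (grey), with 1 point per gene and a black bar at each median. Snhg11 (3.31), Malat1 (2.55) and Gas5 (2.10) lie above the median of the speckle genes (1.91), and Neat1 lies at -0.31.

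Hippocampus was then set beside cortex in wild type mice. The files of the 2 tissues were counted on different gene lists, and the members' identifiers carry different version numbers in them, so tissue and gene model cannot be told apart. Zbtb37, whose gene overlaps that of Gas5, stood at 22.5 CPM on average in hippocampus and 3.18 CPM in cortex. The difference was 2.78 ± 0.12 (SE, n = 3 against 8, edgeR adjusted p = 2.5e-10), and the part of the gene model in it was not tested. Malat1 stood at 327, 346 and 367 CPM in hippocampus, all above the cortex maximum of 271 CPM. It was higher by 0.69 ± 0.13 (SE, n = 3 against 8, edgeR adjusted p = 7.4e-04).

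Neat1 in hippocampus stood at 39.6, 46.1 and 40.6 CPM, where the highest cortex library reached 39.9 CPM. The rise of 0.75 ± 0.21 (SE, n = 3 against 8, edgeR adjusted p = 0.011) was no longer called against the n series alone (0.48, adjusted p = 0.097) or without hippocampus wild type library 2 (0.68, adjusted p = 0.058), with adjusted p from 1.1e-05 to 0.097 over its alternatives. Gas5 stood at 136, 111 and 107 CPM, above every cortex library, and was higher by 0.41 ± 0.10 (SE, n = 3 against 8, edgeR adjusted p = 0.0039). Without hippocampus wild type library 1 the Gas5 value was 0.28 (adjusted p = 0.054), and against the plain series alone 0.23 (adjusted p = 0.063, from 7.6e-04 to 0.063 over its alternatives).

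Snhg11 stood at 837, 1104 and 1238 CPM in hippocampus, within the range of cortex. The difference was -0.25 ± 0.24 (SE, n = 3 against 8, edgeR adjusted p = 0.43) and its sign depended on the control series: 0.27 against the plain series, -0.43 against r and -0.57 against n, the last 2 past the threshold (adjusted p = 0.046 and 0.0083, from 0.0083 to 0.76 over its alternatives). In all, 3 of 4 members were called higher, where 21.5% of 15861 genes were.

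Loss of the long isoform was examined in cortex against the plain wild type series. Here and for the other mutants the main fits compare groups and do not pair same-numbered libraries. The mutant libraries held Neat1 at 53.9, 46.2 and 49.7 CPM, and their controls at 21.4, 28.9 and 19.8 CPM. The lowest mutant library was well above the highest control, and also above the highest of all 8 wild type cortex libraries (39.9 CPM). Neat1 rose by 1.08 ± 0.12 log2 units, a 2.11-fold change (SE, n = 3 against 3, edgeR adjusted p = 4.1e-04), and 1.23% of genes tested had a larger value.

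The same libraries held Snhg11 at 1404, 1262 and 1277 CPM, above the 746, 933 and 846 CPM of the plain series, without overlap. It rose by 0.64 ± 0.08 (SE, n = 3 against 3, edgeR adjusted p = 3.7e-04). The r series held 1259 and 1491 CPM and the n series 1748, 1585 and 1316 CPM, so the mutant level lies within or below that of the other wild type mice. Set against all 8 wild type libraries it was 0.11 higher and was not called (adjusted p = 0.75, from 2.3e-18 to 0.75 over its alternatives). The labels tie no series to this mutant, so for Snhg11 a difference between series and an effect of the mutation cannot be told apart.

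For Gas5 the values were 120, 128 and 130 CPM with the mutation and 98.7, 97.1 and 91.5 CPM in the plain series, and the highest of all 8 wild type libraries was 98.7 CPM. It rose by 0.39 ± 0.07 (SE, n = 3 against 3, edgeR adjusted p = 0.0018). For Malat1 they were 238, 257 and 275 CPM with the mutation and 170, 225 and 195 CPM without it. The lowest mutant library was only a little above the highest control, and the n series reached 271 CPM. Malat1 rose by 0.38 ± 0.10 (SE, n = 3 against 3, edgeR adjusted p = 0.022).

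The Malat1 call was lost under 5 of 12 alternatives. These were all 8 wild type libraries (0.31, adjusted p = 0.12), the fit over all 20 cortex and nuclei libraries (0.37, adjusted p = 0.09), and the fits without wild type library 3 (0.38, adjusted p = 0.065), Dnmt3a1-/- library 2 (0.37, adjusted p = 0.1) or Dnmt3a1-/- library 3 (0.31, adjusted p = 0.078), with adjusted p from 7.8e-06 to 0.12 over its alternatives. Neat1 and Gas5 passed under each of their 12 alternatives, with log2 fold changes of 0.99 to 1.26 and 0.35 to 0.56. All 4 members were called higher, where 8.95% of 15933 genes were called higher and 8.91% lower; with all 8 wild type libraries 2 members were called.

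The partner genes moved less than Neat1 in cortex Dnmt3a1-/-, where 8.95% of 15933 genes were called higher and 8.91% lower. Of 20 paraspeckle proteins 1 was higher, Ewsr1, an RNA-binding protein, at 0.25 ± 0.06 (SE, edgeR adjusted p = 0.018), and the list median was 0.01. Of 20 speckle and splicing proteins 7 were higher and 0 lower, with a median of 0.19, led by Srsf5 at 0.48 ± 0.06 (adjusted p = 4.8e-04), the kinase Clk1 at 0.47 ± 0.07 (adjusted p = 0.0012) and Srrm2, a large scaffold protein of speckles, at 0.40 ± 0.07 (adjusted p = 0.0024). Of 15 snoRNA host genes 5 were higher, Snhg11 and Gas5 among them, and 1 was lower, Hspa8, a heat shock chaperone, at -0.41 ± 0.10 (adjusted p = 0.013). Of 8 other noncoding RNAs Meg3 (0.62 ± 0.09) and Ftx (0.51 ± 0.11) were higher and Dlx6os1, a noncoding RNA of inhibitory neurons, was lower (-0.45 ± 0.11). Of 14 factors of nonsense-mediated decay 1 was higher, Upf3b at 0.47 ± 0.10.

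Neighbouring genes of the members were looked at by name. Frmd8, the neighbour of Neat1 on one side, differed by 0.06 ± 0.08 in cortex Dnmt3a1-/-, with an upper interval end of 0.24, below the lower end of Neat1 (0.81). Malat1, its neighbour on the other side, was itself called higher (0.38 ± 0.10, edgeR adjusted p = 0.022), although not under every alternative. Snhg17, beside Snhg11, differed by 0.10 ± 0.14 (adjusted p = 0.65), and Ralgapb on the other side was lower, at -0.25 ± 0.07 (adjusted p = 0.028 by edgeR). Zbtb37, which overlaps Gas5 in the RefSeq table, differed by -0.22 ± 0.21 and did not pass. The strand setting of the counting is not given in the sources used here, so reads of Gas5 and Zbtb37 may be shared.

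Several measures moved with the Dnmt3a1-/- cortex libraries beside the members, where 8.95% of all genes tested were called higher and 8.91% lower. Reads assigned to no gene feature were 10.34% to 10.8% of uniquely aligned reads in the mutant and 9.38% to 10.16% in the plain series. Markers of choroid plexus, 12 of 12 listed and none at 0, summed to 1412 to 2847 CPM in the mutant and 567 to 1457 CPM in wild type, overlapping, with 0 of 12 called and a median of 0.88. Markers of neurons, 12 of 12 listed and none at 0, summed to 5119 to 5318 CPM against 5752 to 6230 CPM, and 5 of them were called lower and 0 higher. Markers of astrocytes, 12 of 12 listed and none at 0, summed to 19990 to 20650 CPM in the mutant and 18390 to 19910 CPM in wild type, with 3 called higher and 1 lower. Markers of oligodendrocytes, 12 of 12 listed and none at 0, summed to 19360 to 23010 CPM against 16820 to 19840 CPM, overlapping, with 3 called higher and 0 lower. Mitochondrial transcripts, 13 of 13 listed with mt-Nd4l at 0 in both groups, summed to 121000 to 126700 CPM against 107200 to 118200 CPM, with 2 called higher among 10 tested. Markers of blood, 7 of 7 listed and none at 0, summed to 407 to 595 CPM against 597 to 918 CPM, with 1 called lower. Endothelial and microglial sums overlapped, with 3 of 12 and 1 of 12 markers called lower. The part of these measures in the rise of the members was not tested.

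**Figure D3:**
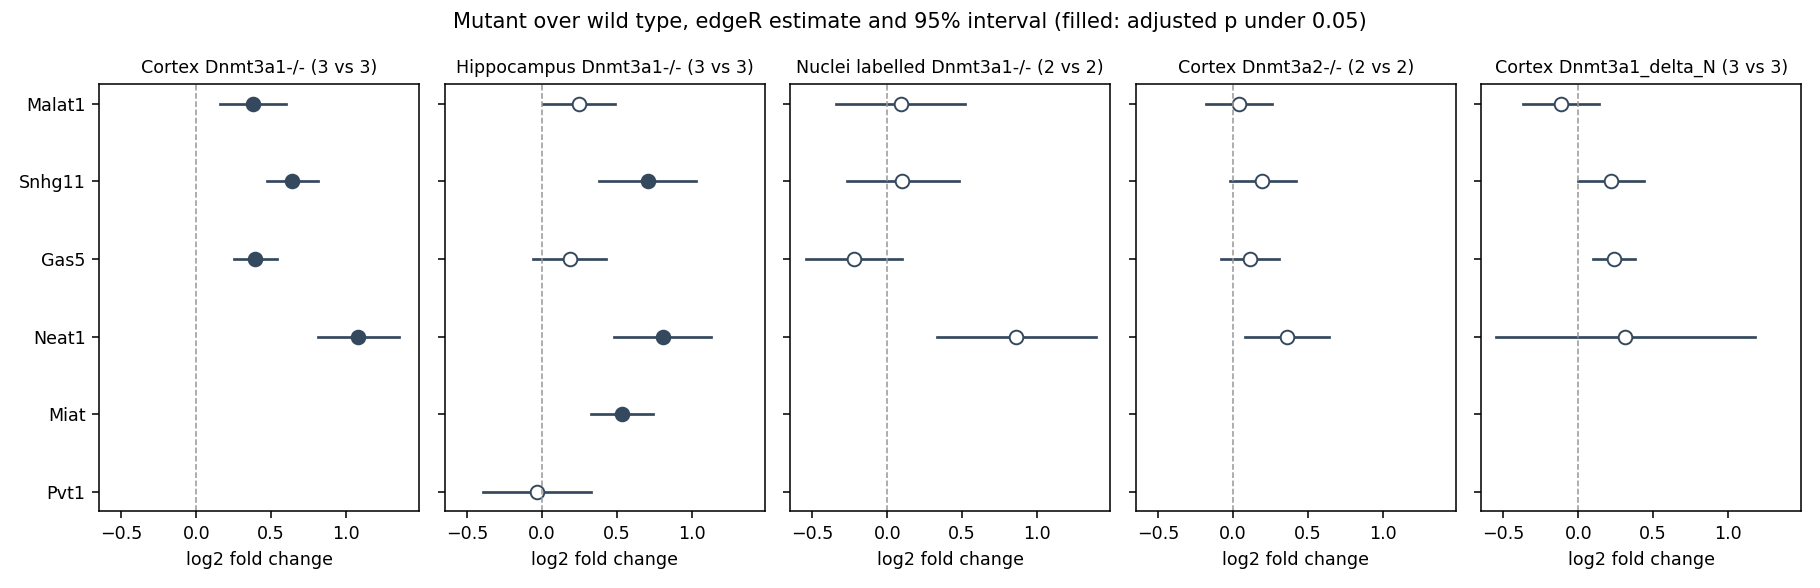
Log2 fold change of mutant over its own wild type for each noncoding RNA (points) with its 95% interval (lines) in 5 comparisons; filled points passed at an adjusted p under 0.05. Neat1 lies to the right of 0 in each panel, and passed in cortex and hippocampus Dnmt3a1-/-.

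In cortex Dnmt3a2-/-, where the short isoform is lost, 0 of 4 members were called by edgeR or DESeq2. Over all genes edgeR called 0.00628% of 15929, with 457 at an unadjusted p under 0.05. Among the members 1 had an unadjusted p under 0.05. That one was Neat1, found at 21.5 and 26.6 CPM against 19.5 and 17.7 CPM in the r series. The mutant libraries were above both controls but inside the range of the 8 wild type libraries, and the difference was 0.36 ± 0.13 (SE, n = 2 against 2, edgeR adjusted p = 1, 95% interval 0.08 to 0.64). Snhg11 stood at 1542 and 1623 CPM against 1259 and 1491 CPM (0.20 ± 0.10). Gas5 stood at 87.2 and 87.7 CPM against 81.0 and 79.7 CPM (0.12 ± 0.09), and Malat1 at 176 and 189 CPM against 178 and 175 CPM (0.04 ± 0.10, 95% interval -0.18 to 0.26).

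In cortex Dnmt3a1_delta_N 0 of 4 members were called by edgeR or DESeq2, and 1 had an unadjusted p under 0.05. Over all genes edgeR, without pairing same-numbered libraries, called 0% of 15881, with 1267 at an unadjusted p under 0.05, and DESeq2 called 43. The member with an unadjusted p under 0.05 was Gas5, at 96.8, 94.4 and 96.4 CPM. The n series held 82.1, 86.7 and 77.2 CPM, without overlap. The Gas5 difference was 0.24 ± 0.06 (SE, n = 3 against 3, edgeR adjusted p = 0.46, 95% interval 0.10 to 0.38). Neat1 spread widely in both groups, at 45.9, 41.8 and 22.4 CPM against 39.9, 29.1 and 20.2 CPM, and its interval ran from -0.55 to 1.18. Snhg11 stood at 1790, 1717 and 1839 CPM against 1748, 1585 and 1316 CPM (0.22 ± 0.10, adjusted p = 0.63). Malat1 stood at 215, 267 and 199 CPM against 271, 262 and 212 CPM, the groups overlapping (-0.12 ± 0.12, adjusted p = 0.86).

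In hippocampus all 6 members could be followed in Dnmt3a1-/- against wild type. Mutant levels of Neat1 were 58.9, 74.9 and 89.3 CPM, and wild type levels 39.6, 46.1 and 40.6 CPM. No library of one group reached the other. Neat1 rose by 0.81 ± 0.15 (SE, n = 3 against 3, edgeR adjusted p = 0.019), a 1.75-fold change.

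Miat levels were 656, 632 and 667 CPM with the mutation, and 403, 459 and 471 CPM in the controls. The mutant libraries lie close together, far above the controls. Miat rose by 0.53 ± 0.10 (SE, n = 3 against 3, edgeR adjusted p = 0.012). Snhg11 levels were 1596, 1660 and 1998 CPM, where the controls held 837, 1104 and 1238 CPM, also without overlap, and rose by 0.71 ± 0.15 (SE, n = 3 against 3, edgeR adjusted p = 0.028).

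Malat1 stood at 375, 398 and 477 CPM against 327, 346 and 367 CPM. Each mutant library was above each control, yet the difference of 0.25 ± 0.11 did not pass (SE, n = 3 against 3, edgeR adjusted p = 0.26, 95% interval 0.01 to 0.49). Gas5 stood at 126, 129 and 151 CPM against 136, 111 and 107 CPM, overlapping, with a difference of 0.19 ± 0.11 (adjusted p = 0.42). Pvt1 stood at 9.33, 6.50 and 8.91 CPM against 7.38, 8.07 and 9.35 CPM. The Pvt1 groups covered the same range, with a difference of -0.03 ± 0.17 (adjusted p = 0.95) and an interval from -0.39 to 0.33. Its neighbour Myc stood at 3.91 CPM on average against 2.43 CPM, at 0.65 ± 0.22, and did not pass (adjusted p = 0.13).

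Thus 3 of 6 members were called higher in hippocampus Dnmt3a1-/-, where 1.69% of 15727 genes were. The calls depended on single libraries. How many of all genes were called with a library left out is not given here. A lost call is therefore not by itself a result about the members. Without Dnmt3a1-/- library 2, 0 members passed (Neat1 0.80, adjusted p = 0.094; Snhg11 0.74, adjusted p = 0.094; Miat 0.55, adjusted p = 0.059), and without wild type library 2 only Neat1 did. Neat1 also missed without wild type library 1 (0.77, adjusted p = 0.055) or 3 (0.78, adjusted p = 0.092), and Snhg11 without Dnmt3a1-/- library 3 (0.57, adjusted p = 0.09). Over all alternatives adjusted p ran from 3.0e-13 to 0.094 for Neat1, 8.7e-09 to 0.095 for Snhg11 and 6.3e-06 to 0.059 for Miat, and no sign changed.

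Reads assigned to no gene feature were 9.69% to 10.3% of uniquely aligned reads in hippocampus Dnmt3a1-/- and 8.41% to 8.74% in wild type, without overlap. Their part in the result was not tested. Markers of choroid plexus, 12 of 12 listed and none at 0 in either group, summed to 222 to 2842 CPM in the mutant and 290 to 370 CPM in wild type. Among them Ttr gave 507, 1720 and 44.2 CPM in mutant libraries 1, 2 and 3, where the controls held 57.6, 84.4 and 68.6 CPM. Another listed gene, Enpp2, averaged 227 CPM in wild type hippocampus (on the identifiers shared with cortex), so the sum and Ttr are different measures. The mutant library with the least Ttr, below every control, is the one with the highest Neat1, Malat1, Snhg11, Miat and Gas5. In cortex Dnmt3a1-/- library 1 had the most Ttr (1920 CPM, beside 784 and 1130 CPM), and it held the highest Neat1 and Snhg11 and the lowest Malat1 and Gas5 of its group. The part of choroid plexus RNA in these levels was not tested.

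**Figure D4:**
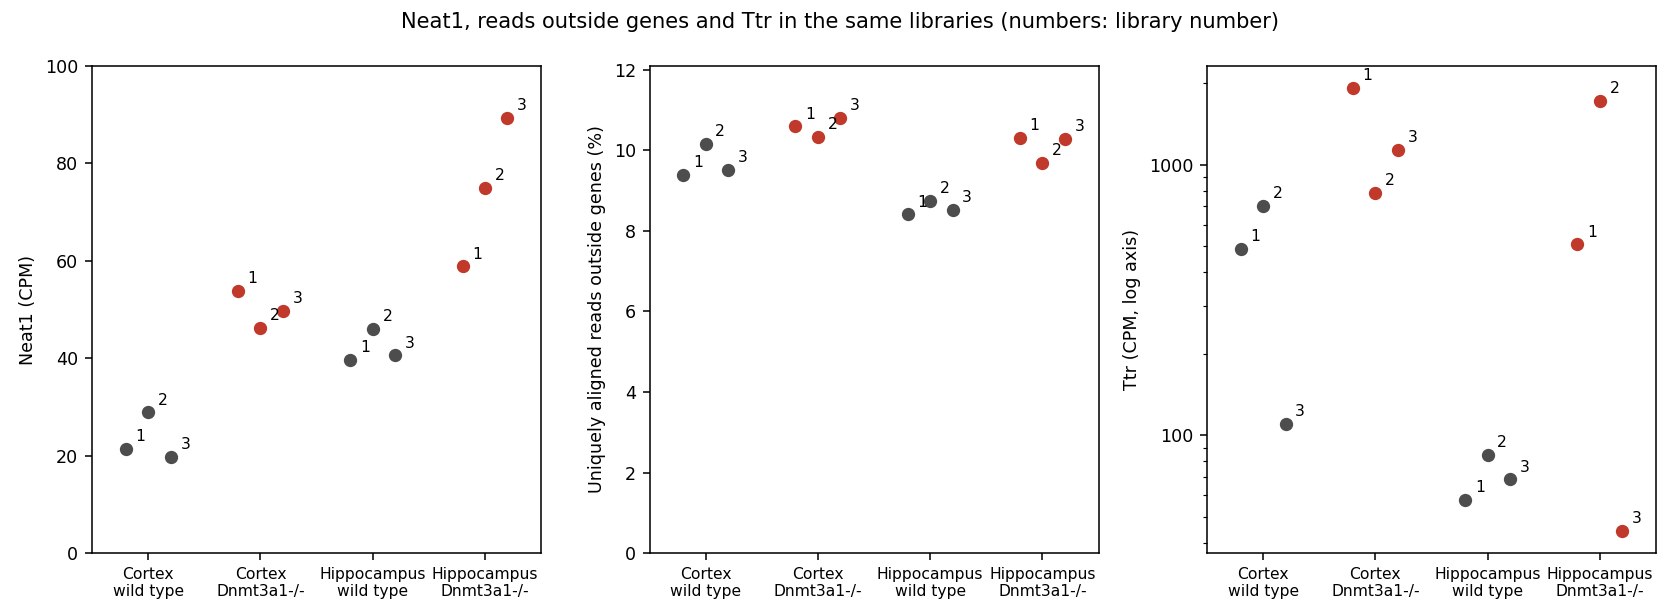
Neat1 (CPM), the percent of uniquely aligned reads assigned to no gene feature (named outside genes on the axis), and Ttr (CPM, log axis) in the same cortex and hippocampus libraries. Points are numbered by library, grey is wild type and red is Dnmt3a1-/-. Hippocampus Dnmt3a1-/- library 3 has the highest Neat1 (89.3 CPM) and the lowest Ttr (44.2 CPM) of its tissue, while cortex Dnmt3a1-/- library 1 has the highest of both in cortex (53.9 and 1920 CPM).

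Of the partner genes in hippocampus Dnmt3a1-/-, beside the 1.69% of all genes called higher, those called were 0 of 20 paraspeckle proteins (median 0.04), 2 of 20 speckle proteins (Srsf2 at 0.40 ± 0.08 and Srsf5 at 0.37 ± 0.08, list median 0.23), 1 of 22 snoRNA host genes, which is Snhg11 itself, and 2 of 20 other noncoding RNAs (Firre at 0.67 ± 0.10 and Meg3 at 0.56 ± 0.12), all of them higher. The cortex and hippocampus effects were compared directly by an interaction term. Of the 4 shared members 0 were called by edgeR or DESeq2 and 0 had an unadjusted p under 0.05; over all genes edgeR called 0% of 15433, with 777 at an unadjusted p under 0.05, and DESeq2 called 3. The hippocampus effect minus the cortex effect was -0.27 ± 0.23 for Neat1 (95% interval -0.76 to 0.22), 0.07 ± 0.19 for Snhg11 (-0.34 to 0.49), -0.13 ± 0.17 for Malat1 (-0.48 to 0.22) and -0.21 ± 0.14 for Gas5 (-0.50 to 0.09).

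In neuron nuclei labelled Dnmt3a1-/- 0 of 4 members were called against wild type by edgeR or DESeq2. Over all genes edgeR called 0.246% of 15860, with 1425 at an unadjusted p under 0.05. Among the members 1 had an unadjusted p under 0.05. That one was Neat1, found at 55.6 and 30.3 CPM against 26.2 and 21.2 CPM. Both mutant libraries were above both controls, by very different distances. The difference was 0.86 ± 0.24 (SE, n = 2 against 2, edgeR adjusted p = 0.24, 95% interval 0.33 to 1.39). It passed with no filter on low counts (0.86, adjusted p = 6.8e-05) and with the replicate block, which sets same-numbered libraries against each other (0.81, adjusted p = 7.8e-08). With 2 libraries a group, the spread behind these edgeR p-values is taken in part from other genes, and the block raised the calls over all genes too. Without the library labelled Dnmt3a1-/- 2, which leaves 1 mutant library, the difference was 1.23. Over its alternatives it ran from 0.36 to 1.23.

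Gas5 was not called in nuclei, at 377 and 384 CPM in libraries labelled Dnmt3a1-/- against 468 and 420 CPM, without overlap (-0.22 ± 0.15, edgeR adjusted p = 0.72). Snhg11 (0.10 ± 0.18, 95% interval -0.27 to 0.48) and Malat1 (0.09 ± 0.20, -0.34 to 0.52) overlapped between the groups. These values share the wild type nuclei with the first comparison of nuclei and cortex. The nuclei effect minus the cortex effect was -0.61 ± 0.13 for Gas5 (95% interval -0.89 to -0.33) and just missed the threshold (SE, edgeR adjusted p = 0.052). It was -0.53 ± 0.17 for Snhg11 (adjusted p = 0.18), -0.29 ± 0.23 for Malat1 (adjusted p = 0.62) and -0.21 ± 0.35 for Neat1 (adjusted p = 0.85). Of these 4 members 0 were called by edgeR, where 0.341% of 17305 genes were. An unadjusted edgeR p under 0.05 was found for 2 of them, Gas5 and Snhg11, beside 2390 of all genes tested. DESeq2 called both (adjusted p = 6.5e-04 and 0.047), and its calls over all genes are not given here. Over its alternatives the adjusted p ran from 6.5e-04 to 0.15 for Gas5 and from 0.031 to 0.42 for Snhg11.

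The order of levels over the 10 groups differed among the members. For Malat1 both nuclei groups came first and overlapped each other, followed by hippocampus Dnmt3a1-/-, hippocampus wild type and then the cortex groups, from 257 CPM in Dnmt3a1-/- to 176 CPM in the r series, in which each neighbour overlapped the next. Neat1 was highest in hippocampus Dnmt3a1-/- (74.4 ± 15.2 CPM, SD, n = 3) and above all others there, then came cortex Dnmt3a1-/- (49.9 ± 3.84), nuclei labelled Dnmt3a1-/- (42.9 ± 17.9, n = 2) and hippocampus wild type (42.1 ± 3.48), each overlapping the next, and the r series came last at 18.6 ± 1.29 CPM (n = 2), just below the plain series. Snhg11 ran from 15740 ± 1320 and 14680 ± 1810 CPM in nuclei to 842 ± 94.0 CPM in the plain wild type series, with cortex Dnmt3a1_delta_N (1782 ± 61.0) highest among tissues but overlapping hippocampus Dnmt3a1-/- (1751 ± 216). Gas5 ran from 444 ± 33.9 CPM in wild type nuclei to 80.3 ± 0.947 CPM in the r series, and wild type nuclei were the only group above nuclei labelled Dnmt3a1-/- (381 ± 4.46).

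Genes with the most similar pattern were sought by Pearson's r of log2 CPM over all 26 libraries, among 12390 genes, as a description with no test. For Snhg11 they were Cstf2 (0.992), Tctn3 (0.992) and Srsf5 (0.991), and for Malat1 Mettl17 (0.988), Gnl3 (0.986) and Heatr6 (0.984). For Gas5 they were Malt1 (0.988), Zfp641 (0.987) and Fnbp4 (0.987). Each of these 3 members stood apart in the 4 nuclei libraries, which raises r over all libraries. Over the 22 tissue libraries, a choice made after seeing the data, the same genes held 0.901 to 0.912 with Snhg11, 0.913 to 0.949 with Malat1 and 0.901 to 0.938 with Gas5, and Cstf2, Tctn3 and Srsf5 were again the 3 highest for Snhg11. For Neat1 the values over all libraries were lower, with Zfp687 (0.900), Med12 (0.894) and Cercam (0.887). Between members, r over the 26 libraries was 0.952 for Malat1 and Gas5 and 0.112 for Malat1 and Neat1. Over the 22 tissue libraries Malat1 and Neat1 were at 0.852 and Malat1 and Snhg11 at 0.161. These pool cortex and hippocampus, which were counted on different gene lists and between which both Malat1 and Neat1 differed, so the points are not independent.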

How the data were processed

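The deposited files hold counts, whole numbers of reads per gene, 1 library per file. Per the submitters' processing notes reads were aligned to mm9 with STAR 2.5.4a and counted with HTSeq 0.11.0; per the labels' protocols the kit was a stranded mRNA kit. The annotation release and strand setting are not given in the sources used here. Lines naming no gene (21.14% to 36.97% of reads) were left out. Symbols came from the supplied name table (32620 of 37310 identifiers in cortex and nuclei, 55394 of 55487 in hippocampus). Tissues were compared on the 32601 shared identifiers.

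Each comparison was fitted with edgeR 4.0.16 (R 4.3.3) on its own libraries: filterByExpr, TMM, robust quasi-likelihood F-test, Benjamini-Hochberg over all genes tested, threshold 0.05. SEs were derived from the F statistic (absolute log2 fold change divided by its root), and intervals are 95% t intervals. CPM is not TMM-scaled. Alternatives were DESeq2 1.42.0, no TMM, no filter, other wild type series, each library left out, a joint fit and a replicate block. On simulated counts for cortex Dnmt3a1-/- (15933 genes) edgeR called 74.7% of 1.5-fold and 100% of 2-fold changes, with 17 false calls. For nuclei labelled Dnmt3a1-/- (15860 genes) it called 34.8% and 94.7%, with 11 false calls. Each simulation changed 200 genes and held no pairing and no difference between series.

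To see whether equal library numbers mark pairs, each library's departure from its group mean was correlated, over genes, with that of its namesake. Values of 0.184 to 0.376 (Dnmt3a1-/- cortex) and 0.24 to 0.419 (Dnmt3a1_delta_N) were taken as pairing, from the data alone since no label states it. In hippocampus it was -0.056 to 0.272, and with 2 pairs in nuclei (0.297) and Dnmt3a2-/- (0.111) this was not settled. The main fits hold no term for pairing in any comparison, also where it was taken as present, and the replicate block is an alternative only.

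Named were the 6 members, their neighbours in the RefSeq table (some are not reported here), up to 3 called genes per list with the smallest adjusted p, the 3 genes of highest r per member, and Dnmt3a. Members and lists were chosen with earlier results of these data known, so a list's direction is no independent evidence. Other samples of the series were not analysed here.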

Additional observations from a re-analysis of the deposited data

Results flagged for a closer look

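For Gas5 the Dnmt3a1-/- libraries of cortex and nuclei lay on opposite sides of their controls, although the nuclei difference did not pass: each Dnmt3a1-/- cortex library was above each wild type cortex library of the plain series (0.39 on the log2 scale), and each nuclei library labelled Dnmt3a1-/- was below each wild type nuclei library (-0.22, edgeR adjusted p = 0.72, 95% interval -0.54 to 0.10). With 2 nuclei libraries a group, a lack of overlap says little, and how many of all genes lie in this way was not counted. The difference of the 2 effects was -0.61 ± 0.13 (SE, edgeR interaction term, adjusted p = 0.052), just outside the threshold. It passed with DESeq2 (-0.64, adjusted p = 6.5e-04), with no filter on low counts (-0.59, adjusted p = 0.011) and with the replicate block (-0.61, adjusted p = 0.0051). Over 14 alternatives the adjusted p ran from 6.5e-04 to 0.15. Without wild type nuclei library 2, which leaves 1 library in that group, the difference was -0.72. Dnmt3a itself showed a difference of the 2 effects of 0.93 ± 0.13 (adjusted p = 0.0091), since its count fell in cortex and not in the nuclei labelled Dnmt3a1-/-.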

How the results depend on the processing

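Of 524 member values under alternatives, 474 kept their direction and their side of the threshold, 18 lost the call, 15 gained one and 17 changed sign; no called value changed sign. The number of members called in cortex Dnmt3a1-/- was 2 with all 8 wild type libraries. In hippocampus Dnmt3a1-/- it was 0 to 3 with 1 library left out. In nuclei labelled Dnmt3a1-/- it was 1 with no filter and 1 with the replicate block, and 0 to 1 with 1 library left out. For the nuclei effect minus the cortex effect it was 2 with DESeq2, 2 with no filter, 2 with the replicate block and 0 to 1 with 1 library left out. The calls over all genes also change between settings, as given below for the block, so a larger count of members under a setting is not by itself a result about the members.

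Sign changes touched values that had not passed. Neat1 in nuclei against cortex was 0.084 against the r series, and Snhg11 in hippocampus against cortex 0.27 against the plain series. With all 8 wild type libraries, Dnmt3a2-/- gave -0.008 for Gas5, -0.054 for Neat1 and -0.23 for Malat1, and Dnmt3a1_delta_N gave 0.10 for Malat1. The 3 wild type series differ, and these fits have no term for the series. With 1 library left out, Malat1 ran from -0.002 to 0.08 in Dnmt3a2-/- and Pvt1 from -0.14 to 0.11 in hippocampus Dnmt3a1-/-. In nuclei labelled Dnmt3a1-/- Snhg11 ran from -0.027 to 0.25 and Malat1 from -0.17 to 0.41. For the nuclei effect minus the cortex effect Neat1 ran from -0.73 to 0.17 and Malat1 from -0.57 to 0.062, and for the hippocampus effect minus the cortex effect Snhg11 ran from -0.074 to 0.20. The cause of these shifts was not tested.

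With the replicate block the calls over all genes rose from 2845 to 4941 in cortex Dnmt3a1-/-, from 1 to 55 in Dnmt3a2-/-, from 39 to 740 in nuclei and from 59 to 901 for the nuclei effect minus the cortex effect, and fell from 396 to 246 in hippocampus. Dnmt3a1_delta_N, with 0 calls without the block, gained calls with it. Among the members it changed no call but those of Neat1 in nuclei (0.81, adjusted p = 7.8e-08) and of Gas5 and Snhg11 in the nuclei effect minus the cortex effect (-0.61 and -0.53, adjusted p = 0.0051 and 0.031). Without 1 nuclei library an arm holds 1 library, which is assumed to vary like the other group. Depth limits Pvt1 most, at 64 to 207 counts a library.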
